A study of Homo sapiens with 6 samples.

Results

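The 10 genes described here encode the NF-κB transcription factor subunits and proteins that bind them or limit their activity. They are NFKB1, NFKB2, RELA, RELB, REL, NFKBIA, NFKBIB, NFKBIE, TNFAIP3 and BCL3, and their rows were found by gene symbol. All 10 had a row in the table of read counts, which holds 30327 genes, and in the table of FPKM, which holds 29912. All 10 also passed the filter on low counts that kept 15801 genes for testing.

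RNA was sequenced from the cell line SK-BR-3, long established from a breast cancer of luminal type with amplified ERBB2 (HER2), in 2 groups of 3 libraries. Cells of the control group received a nontargeting siRNA (si_NC), and cells of the treated group are described as si_GRB2, an siRNA against GRB2, the adaptor protein that couples receptor tyrosine kinases to Ras signalling. Both groups are the same line with no other allele or agent named, and the knockdown is transient. The labels do not state a dose, a time after transfection, which siRNA was used, or whether the replicates were separate cultures, so p-values measure only the spread between these libraries. The titles and genotype entries of the treated libraries, and the design text, name GRB2 overexpression instead. The counts of GRB2 went against that name. GRB2 was at 123.9, 129.5 and 125.7 CPM (read counts scaled to a common library size) in si_NC 1, 2 and 3 and at 27.8, 28.2 and 29.6 CPM in si_GRB2 1, 2 and 3. The 3 treated libraries were far below the 3 control libraries, a log2 fold change of −2.15 (SE 0.04, adjusted p = 3.87e-15 by edgeR's quasi-likelihood test). The groups are therefore called si_NC and si_GRB2, and every direction is si_GRB2 against si_NC.

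Counted reads ranged from 24810378 to 28532480 per library, of which 9731 to 12139 fell on the 10 genes. Within groups, log2 CPM of paired libraries correlated at 0.9918 (si_NC 1 with si_NC 3) to 0.9955 (si_GRB2 2 with si_GRB2 3). Of the luminal epithelial markers listed, 7 of 8 passed the filter, ERBB2 and the keratins among them, whereas CDH1 had only 9 reads in all libraries together. Of those 7 markers, 1 was higher and 5 were lower after si_GRB2 (85.7% called, against 30.6% of all genes tested in either direction). The higher one was ERBB2, with a mean of 3499 CPM in si_NC and 4140 CPM in si_GRB2. KRT8, KRT18 and KRT19 were among the lower. The summed level of the 7 ranged from 17390 to 17780 CPM in si_NC and from 14540 to 15130 CPM in si_GRB2. Leukocyte markers summed to 2.46 to 3.02 CPM in si_NC and 2.07 to 2.40 CPM in si_GRB2, with PTPRC at 2 reads and CD3E at 14 reads in all. Fibroblast and endothelial markers summed to 5.24 to 7.06 and 5.25 to 6.16 CPM, with PECAM1 at 3 reads and DCN at 2. In neither of those lists did a gene pass the test, of the 3 and 2 that could be tested. Fewer cells of a type and less RNA per cell cannot be told apart in bulk libraries.

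NF-κB is a family of dimeric transcription factors that control inflammatory, survival and immune genes. In resting cells the dimers are held in the cytoplasm by inhibitors of the IκB family. The IκB kinase (IKK) marks these inhibitors for destruction, and the freed dimers enter the nucleus. In the canonical pathway this releases RELA or REL with p50, made from NFKB1. In the noncanonical pathway the kinase NIK leads to processing of p100, the product of NFKB2, into p52, which acts with RELB. Several of the genes for subunits and inhibitors are themselves NF-κB targets, so the pathway limits its own activity. In HER2-amplified breast cancer cells NF-κB is studied as a survival pathway downstream of receptor signalling. The measurements here are of mRNA, whereas NF-κB is controlled largely at the level of protein stability and location.

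Promoters are shown first for 4 of the genes, because κB sites in them are the route by which NF-κB is known to act on its own genes. Each sequence is from RefSeq on GRCh38.p14, written 5′ to 3′ on the gene's strand, and runs from 250 bases before the transcription start to 50 bases after it. Capitals mark matches, on either strand and with overlapping matches merged, to the 10-base κB consensus. NFKBIA (chr14:35404700-35404999, minus strand) and TNFAIP3 (chr6:137867009-137867308, plus strand) had lower mRNA after si_GRB2 and hold matches. NFKB2 (the window chr10:102394328-102394627, plus strand) holds matches and was not called changed. RELA (the window chr11:65662867-65663166, minus strand) had lower mRNA and holds no match.
NFKBIA: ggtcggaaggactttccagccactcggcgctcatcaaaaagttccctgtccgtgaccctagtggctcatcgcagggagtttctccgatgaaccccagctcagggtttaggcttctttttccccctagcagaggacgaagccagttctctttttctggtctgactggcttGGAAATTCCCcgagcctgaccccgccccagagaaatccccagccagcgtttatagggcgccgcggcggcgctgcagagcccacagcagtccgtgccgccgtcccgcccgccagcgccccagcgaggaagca
TNFAIP3: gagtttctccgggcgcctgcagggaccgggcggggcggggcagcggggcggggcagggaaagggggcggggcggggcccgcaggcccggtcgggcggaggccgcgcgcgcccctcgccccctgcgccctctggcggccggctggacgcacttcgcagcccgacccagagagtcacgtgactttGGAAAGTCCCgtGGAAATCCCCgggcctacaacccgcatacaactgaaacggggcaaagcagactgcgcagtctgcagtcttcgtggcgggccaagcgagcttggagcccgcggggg
NFKB2: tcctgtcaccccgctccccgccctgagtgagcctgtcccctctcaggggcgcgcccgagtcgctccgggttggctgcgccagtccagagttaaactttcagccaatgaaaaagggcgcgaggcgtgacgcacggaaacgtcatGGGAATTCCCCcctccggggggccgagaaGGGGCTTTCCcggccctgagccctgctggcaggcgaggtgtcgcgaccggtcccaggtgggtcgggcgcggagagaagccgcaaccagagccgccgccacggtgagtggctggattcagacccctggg
RELA: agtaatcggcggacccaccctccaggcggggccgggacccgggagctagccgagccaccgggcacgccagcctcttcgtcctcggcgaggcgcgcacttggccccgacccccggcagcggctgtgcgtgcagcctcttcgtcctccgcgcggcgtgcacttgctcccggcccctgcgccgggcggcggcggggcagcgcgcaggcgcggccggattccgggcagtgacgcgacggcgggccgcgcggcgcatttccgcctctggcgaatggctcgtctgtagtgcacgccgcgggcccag

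The match in the NFKBIA promoter begins at position −81 relative to the start, and reads GGGAATTTCC on the opposite strand. The 2 matches in the TNFAIP3 promoter begin at −67 and −55, also on the opposite strand. In the NFKB2 window shown, overlapping matches on both strands begin at −107 and −106 and a further match at −78. RefSeq promoters were given for 8 of the 10 genes, as 13 windows, and there was no entry for RELB or NFKBIE. Of the 13 windows 8 held at least 1 match (61.5%), against 11.3% of all 35116 promoters of the same length in the table and 13.4% of the 15406 promoters of genes tested. By gene, 7 of the 8 genes held a match in at least 1 window, RELA being the exception. The share among the 10689 tested genes with a promoter was 17.1%. The median GC content was 68.7% in the 13 windows and 64.7% in the promoters of genes tested. Matches were found in 2 of the 3 genes with lower mRNA that had a window and in all 5 genes that were not called. A link between matches and change was not tested, as few genes had a window and RELB had none. A match describes the letters of the window and not a bound site.

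Among the 10 genes, RELA, RELB, NFKBIA and TNFAIP3 were lower after si_GRB2 and none was higher, at an adjusted p under 0.05 over all 15801 genes tested. RELA fell by 13.2%, NFKBIA fell by 13.4%, TNFAIP3 fell by 18.1% and RELB fell by 22.6%, all less than 1.5-fold. The 4 of 10 lower genes stand beside a background of 15.5% of all genes tested that were lower at the same threshold, and the 0 higher genes beside 15.2% that were higher. At the limits used in the study (a rise above 1.5-fold or a fall of at least that size, here with an adjusted p under 0.01) 0 of the 10 passed, against 2.52% of all genes tested. The median log2 fold change of the 10 was −0.11, and that of all genes tested 0.0019. Without overlap between groups in CPM, 4 of the 10 were lower, against 21.2% of all genes, and 1 was higher, against 21.1%.

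**Figure D1:**
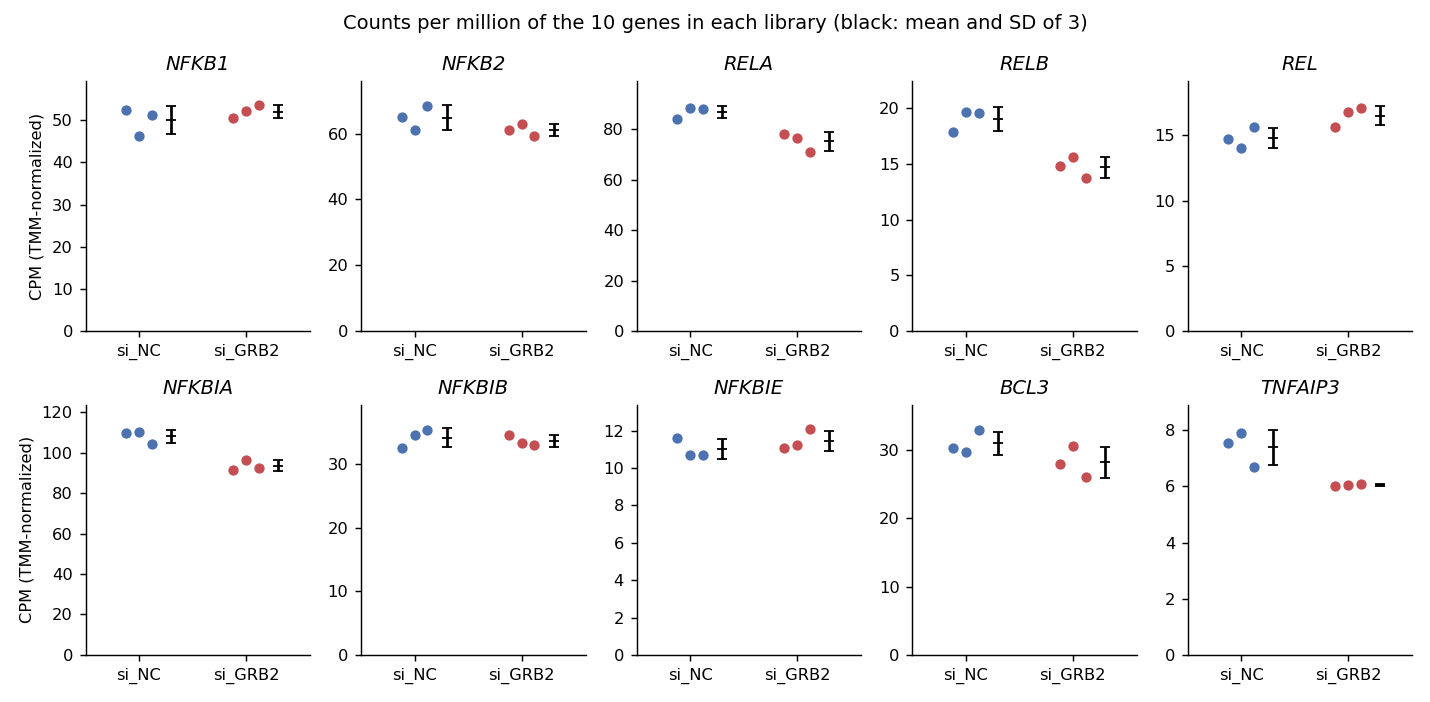
CPM (vertical axis, from 0, TMM-normalized) of each of the 10 genes in the 3 si_NC (blue) and 3 si_GRB2 (red) libraries, with the mean and SD of each group in black. RELA, RELB, NFKBIA and TNFAIP3 lie lower in all 3 si_GRB2 libraries, REL lies slightly higher in all 3, and the groups overlap for the other 5 genes.

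RELA encodes p65, the main transactivating subunit of the canonical pathway. It was at 84.0, 88.4 and 87.8 CPM in si_NC 1, 2 and 3 and at 78.2, 76.6 and 71.0 CPM in si_GRB2 1, 2 and 3. Every si_GRB2 library was below every si_NC library. The means were 86.7 ± 2.40 and 75.3 ± 3.77 CPM (SD, n = 3 each), which fell by 13.2%, with a log2 fold change of −0.20 (SE 0.04, adjusted p = 0.00119). RELA lies at chr11:65653599-65663090 on the minus strand (GRCh38), and RELA-DT, a noncoding gene on the opposite strand, overlaps it with 3.18% as many reads.

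RELB encodes the subunit that acts mainly with p52 in the noncanonical pathway, and it fell the most in proportion. It was at 17.8, 19.7 and 19.6 CPM in the si_NC libraries and at 14.8, 15.6 and 13.7 CPM in the si_GRB2 libraries. Every si_GRB2 library lay below the lowest si_NC library, si_NC 1. The level fell by 22.6%, a log2 fold change of −0.37 (SE 0.07, 95% interval −0.52 to −0.22, adjusted p = 0.000593). RELB lies at chr19:45001461-45038192 on the plus strand.

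REL encodes c-Rel, a canonical subunit best known in lymphoid cells, and it ran the other way. It was at 14.7, 14.1 and 15.6 CPM in si_NC and at 15.7, 16.8 and 17.1 CPM in si_GRB2. The groups did not overlap, but the gap between si_NC 3 and si_GRB2 1 was small. The log2 fold change was 0.16 (SE 0.07, 95% interval 0.01 to 0.30) and the adjusted p was 0.0928 by edgeR, which does not pass the threshold. REL lies at chr2:60881491-60931612 on the plus strand.

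NFKB1 encodes p105, the precursor of p50. It was at 52.5, 46.3 and 51.2 CPM in si_NC and at 50.6, 52.1 and 53.5 CPM in si_GRB2. The groups overlapped, with si_NC 2 the lowest library. Its log2 fold change was 0.06 (95% interval −0.05 to 0.16, adjusted p = 0.427). NFKB1 lies at chr4:102501330-102617302 on the plus strand.

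NFKB2 encodes p100, which serves both as the precursor of p52 and as an inhibitor of RELB dimers. It was at 65.0, 61.1 and 68.5 CPM in si_NC and at 61.1, 62.8 and 59.2 CPM in si_GRB2. The groups overlapped, and the log2 fold change was −0.09 (SE 0.04, 95% interval −0.18 to 0.01, adjusted p = 0.155). Without si_NC 2 it passed the threshold, at −0.14 with an adjusted p of 0.046. NFKB2 lies at chr10:102394110-102402524 on the plus strand. Of the 5 subunit genes, then, 2 were lower, 0 were higher and 3 did not pass the test, with a median log2 fold change of −0.09.

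NFKBIA encodes IκBα, the inhibitor that is degraded and then rapidly resynthesized under NF-κB control. It was the most abundant of the 10 genes and the most deeply counted, with 16116 reads. It was at 109.7, 110.4 and 104.2 CPM in si_NC and at 91.6, 96.5 and 92.7 CPM in si_GRB2. All 3 si_GRB2 libraries were below all 3 si_NC libraries. The means were 108 ± 3.37 and 93.6 ± 2.56 CPM, which fell by 13.4%, with a log2 fold change of −0.21 (SE 0.04, adjusted p = 0.000341). NFKBIA lies at chr14:35401079-35404749 on the minus strand.

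TNFAIP3 encodes A20, an enzyme that edits ubiquitin chains and shuts down signalling to IKK. It was the least counted of the 10, with 1072 reads. It was at 7.56, 7.89 and 6.70 CPM in si_NC and at 6.0, 6.05 and 6.08 CPM in si_GRB2. The si_GRB2 libraries were nearly equal and all below the lowest si_NC library, si_NC 3. The level fell by 18.1%, a log2 fold change of −0.29 (SE 0.10, 95% interval −0.51 to −0.07, adjusted p = 0.0476), just past the threshold. The call was lost in 10 of the 15 alternatives, with an adjusted p of 0.147 by DESeq2, of 0.0821 without the filter on low counts, and of 0.0949 to 0.159 in 5 of the 6 fits that left out 1 library. It was kept, with an adjusted p of 0.02, without si_NC 3. TNFAIP3 lies at chr6:137867214-137883314 on the plus strand, and reads of the opposite-strand gene WAKMAR2 came to 2.43% of its own.

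BCL3 encodes an IκB-like nuclear protein that works as a coactivator with p50 or p52 dimers. It was at 30.2, 29.7 and 32.9 CPM in si_NC and at 27.9, 30.5 and 26.1 CPM in si_GRB2. The groups overlapped through si_GRB2 2. The log2 fold change was −0.13 (SE 0.06, 95% interval −0.26 to −0.01) and the adjusted p was 0.107 by edgeR, which does not pass. Without si_GRB2 2 it was −0.20 with an adjusted p of 0.0324. BCL3 lies at chr19:44747705-44760044 on the plus strand.

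NFKBIB and NFKBIE encode IκBβ and IκBε, inhibitors that are degraded and restored more slowly than IκBα. NFKBIB was at 32.6, 34.6 and 35.5 CPM in si_NC and at 34.7, 33.4 and 33.0 CPM in si_GRB2. NFKBIE was at 11.6, 10.7 and 10.7 CPM in si_NC and at 11.1, 11.2 and 12.1 CPM in si_GRB2. The groups overlapped for both. The log2 fold change of NFKBIB was −0.02 (95% interval −0.12 to 0.08, adjusted p = 0.771), the smallest of the 10. That of NFKBIE was 0.06 (95% interval −0.11 to 0.22, adjusted p = 0.658).

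NFKBIB lies at chr19:38899700-38908893 on the plus strand, and SIRT2, a deacetylase gene on the opposite strand, overlaps it. SIRT2 had 8630 reads, 159% of those of NFKBIB, and rose, with a log2 fold change of 0.22 (adjusted p = 0.000911). The libraries were strand-specific, but the sources used here do not say whether counting used strand, so the value of NFKBIB is uncertain. NFKBIE lies at chr6:44258166-44265788 on the minus strand. Of the 5 genes for IκB proteins, BCL3 and A20, 2 were lower, 0 were higher and 3 did not pass. Their median log2 fold change was −0.13, the value of BCL3.

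**Figure D2:**
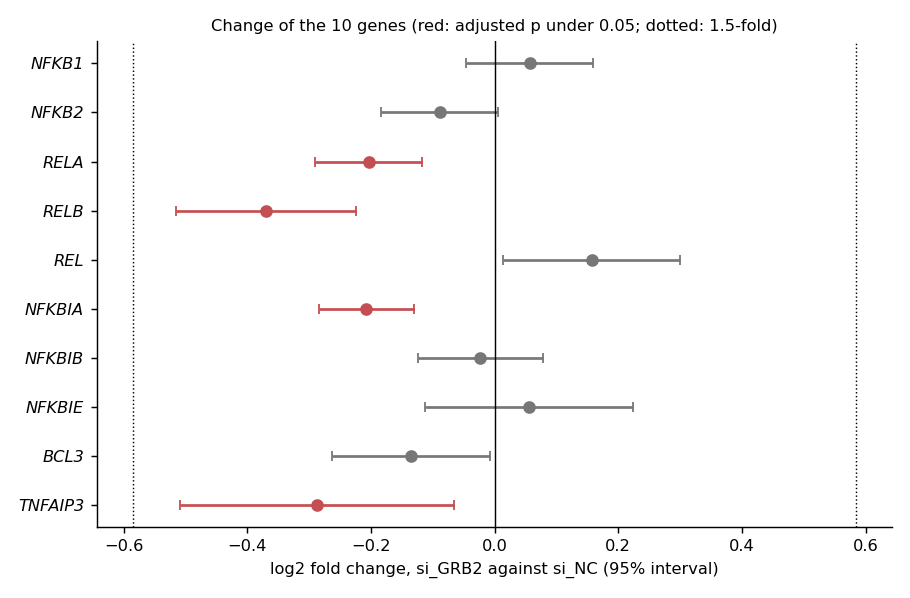
Log2 fold change of si_GRB2 against si_NC (horizontal axis) for the 10 genes, as points with 95% intervals from edgeR, in red where the adjusted p was under 0.05, with dotted lines at a 1.5-fold change. The 10 intervals all lie within the dotted lines, and the red points run from −0.37 for RELB to −0.20 for RELA.

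RELA, RELB and NFKBIA kept their direction and passed the threshold in each of the 6 fits that left out 1 library. The log2 fold change of RELA ranged from −0.23 to −0.16 in these fits, that of RELB from −0.42 to −0.32 and that of NFKBIA from −0.24 to −0.19. All 3 also passed with DESeq2. On the authors' FPKM tested with limma they were lower but mostly did not pass, with an adjusted p of 0.0738 to 0.19 for RELA in 3 of 3 such fits, of 0.087 and 0.096 for RELB in 2, and of 0.098 and 0.0996 for NFKBIA in 2.

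**Figure D3:**
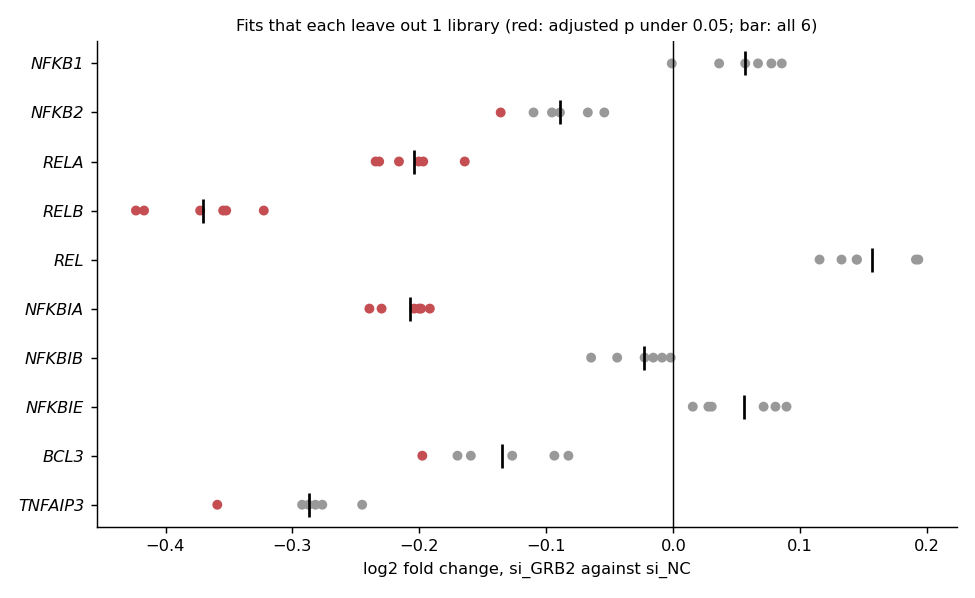
Log2 fold change of each of the 10 genes (horizontal axis) in the 6 fits that each leave out 1 library, in red where the adjusted p was under 0.05, with a black bar for the fit to all 6 libraries. RELA, RELB and NFKBIA are red in all 6 fits, TNFAIP3 in 1, NFKB2 in 1 and BCL3 in 1, and the points of NFKB1 reach just below 0.

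Levels can be compared between genes only per length, as in FPKM. In si_NC, NFKBIA led at 36.6 ± 0.519 FPKM (SD, n = 3), above RELA at 12.8 ± 0.740, NFKBIB at 11.8 ± 0.905 and NFKB2 at 11.1 ± 0.961 FPKM. Neighbours in the order overlapped for RELA with NFKBIB and for NFKBIB with NFKB2. Below them came BCL3 at 8.04 ± 0.733, NFKB1 at 6.32 ± 0.480, RELB at 5.07 ± 0.423 and NFKBIE at 3.42 ± 0.110 FPKM. TNFAIP3 at 1.18 ± 0.0702 and REL at 0.903 ± 0.0757 FPKM closed the order, and from NFKB2 down no neighbours overlapped. By mean FPKM over all 6 libraries of both groups, NFKBIA stood at the 93.1 percentile of the genes tested and REL at the 30.9 percentile. The median gene was at 2.63 FPKM on that measure.

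In si_GRB2 the order was much the same, but 5 pairs of neighbours overlapped. NFKBIA, at 32.7 ± 1.72 FPKM, stayed first. NFKBIB at 11.99 ± 0.141, RELA at 11.4 ± 0.495 and NFKB2 at 10.7 ± 0.478 FPKM overlapped in turn, as did BCL3 at 7.54 ± 0.702 with NFKB1 at 6.78 ± 0.359, and RELB at 4.04 ± 0.304 with NFKBIE at 3.67 ± 0.240 FPKM. REL, at 1.04 ± 0.0751 FPKM, stood above TNFAIP3, at 0.997 ± 0.0322 FPKM, in a pair that overlapped.

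**Figure D4:**
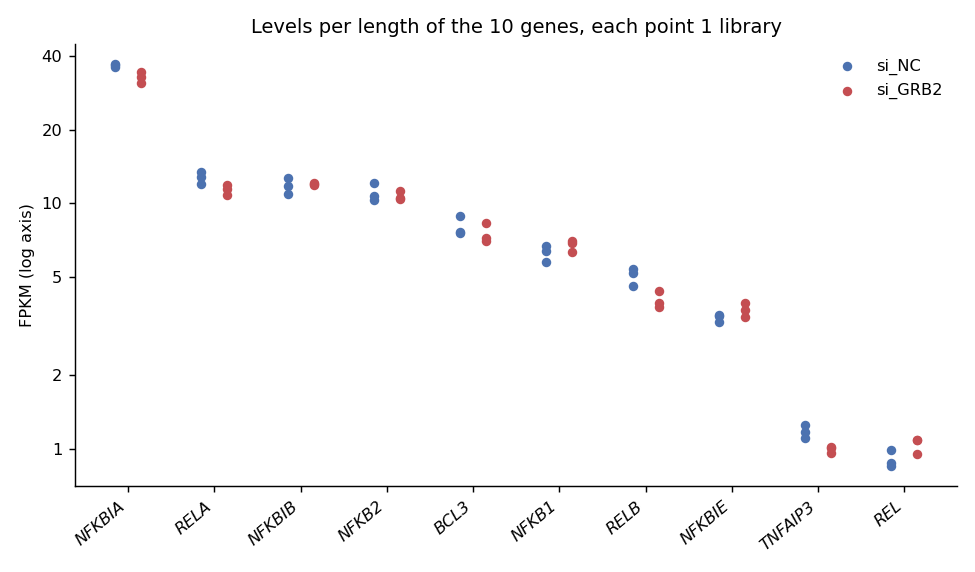
FPKM (vertical axis, log scale) of the 10 genes in each si_NC (blue) and si_GRB2 (red) library, ordered by the mean in si_NC. NFKBIA lies highest, near 36.6 FPKM in si_NC, and TNFAIP3 and REL lie lowest, near 1.18 and 0.903 FPKM.

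Ratios of FPKM within a library describe the balance of partner subunits, and they are given without a test. The ratio of RELB to NFKB2, whose products pair in the noncanonical pathway, was 0.428, 0.503 and 0.446 in si_NC and 0.378, 0.389 and 0.362 in si_GRB2. The ratio of RELA to NFKB1, the canonical pair, was 1.86, 2.22 and 1.999 in si_NC and 1.80, 1.71 and 1.55 in si_GRB2. Both ratios were lower in every si_GRB2 library. The ratio of REL to RELA was 0.0726, 0.0660 and 0.0736 in si_NC and 0.0827, 0.0911 and 0.0993 in si_GRB2, higher in every si_GRB2 library. The ratio of NFKBIA to RELA, inhibitor to subunit, was 3.01, 2.88 and 2.73 in si_NC and 2.70, 2.90 and 3.003 in si_GRB2, and these overlapped throughout, since both genes fell by a similar proportion.

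The core kinases above the IκB proteins did not move in one direction. MAP3K14, which encodes NIK, the kinase that starts the noncanonical pathway, was at 7.99, 10.1 and 9.80 CPM in si_NC and at 6.08, 6.88 and 6.28 CPM in si_GRB2. It fell by 30.8%, without overlap (log2 fold change −0.53, SE 0.11, adjusted p = 0.00135). CHUK, which encodes IKKα, rose from 21.0, 21.2 and 21.7 CPM to 23.3, 25.2 and 27.1 CPM, a log2 fold change of 0.24 (SE 0.06, adjusted p = 0.00494). IKBKB, which encodes IKKβ, had a log2 fold change of 0.06 and did not pass (adjusted p = 0.488). IKBKG, which encodes the scaffold NEMO, had a log2 fold change of 0.24 and did not pass (adjusted p = 0.119). Its near-identical copy IKBKGP1 had 49 reads of its own. The authors counted only uniquely mapped reads, so reads that match both genes could be missing from the counts.

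Of the 13 genes listed as IKK complex and upstream kinases, 3 were higher and 4 lower (53.8% called, median log2 fold change 0.06). The background for this and the following lists is again 30.6% of all genes tested. The other lower genes named by the rule were TAB3 (log2 fold change −0.34), an adaptor of the kinase TAK1, MAP3K3 (−0.28), and the IKK-related kinase IKBKE (−0.27). Besides CHUK, the higher genes were TBK1 (0.21) and TAB1 (0.19), which the rule did not name. Of 26 ubiquitin ligases, deubiquitinases and adaptors, 6 were higher and 0 lower (23.1% called, median 0.02). The risen genes included TAX1BP1, which carries A20 to its substrates, at 175.6, 180.3 and 169.0 CPM in si_NC and 224.1, 232.0 and 231.9 CPM in si_GRB2 (log2 fold change 0.39, SE 0.03, adjusted p = 1.06e-07). RNF11, another partner of A20, rose by 0.31 on the log2 scale, TRAF6 by 0.28, BIRC2 by 0.25 and TRAF3 by 0.22. The mRNA of A20 itself, TNFAIP3, was lower, by a call that was lost in 10 of the 15 alternatives.

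Of 7 other IκB-like and A20-binding genes tested, 1 was higher and 1 lower (28.6% called, median −0.07). The higher was PDLIM2 (log2 fold change 0.29), whose product directs nuclear RELA to degradation, and the lower TNIP1 (−0.19), which binds A20. Of 24 receptors and ligands, 10 could be tested, with 3 higher and 2 lower (50% called, median 0.08). TNF, the cytokine that activates the canonical pathway, was at 3.32, 3.73 and 3.78 CPM in si_NC and at 1.75, 1.75 and 2.25 CPM in si_GRB2. It fell by 46.9%, without overlap, on 443 reads in all (log2 fold change −0.91, SE 0.17, adjusted p = 0.000497). TNFRSF1A, the main TNF receptor, rose by 0.25 on the log2 scale and IL1RAP, a subunit of the IL-1 receptor, by 0.30. TNFRSF10B, a TRAIL receptor, rose by 0.17, while TNFRSF12A, the receptor for TWEAK, had a log2 fold change of −0.21.

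Of 30 NF-κB target genes listed, 20 could be tested, with 0 higher and 11 lower (55% called). The median log2 fold change of the 20 was −0.51, beside 0.0019 for all genes tested, and single genes ran from −1.62 to 0.58. The list was chosen with earlier results of these data known, so this comparison is only descriptive. ICAM1, an adhesion molecule, was at 11.98, 13.11 and 12.73 CPM in si_NC and at 7.95, 6.37 and 6.52 CPM in si_GRB2 (log2 fold change −0.86, SE 0.10, adjusted p = 4.82e-06). IRF1, a transcription factor of the interferon response, fell by 33.6% (log2 fold change −0.59, adjusted p = 9.27e-07). BIRC3, an inhibitor of apoptosis, fell by 33% on 344 reads (−0.58, adjusted p = 0.0201). The largest falls were on few reads, the chemokine CCL20 at −1.62 with 93 reads and CD83 at −1.02 with 175. Well-counted genes were found on both sides of the threshold, and those named next were singled out after their values were seen. GADD45B (5827 reads), TNFAIP2 (7100 reads) and LCN2 (4193 reads) fell, with log2 fold changes of −0.58, −0.54 and −0.41 (adjusted p = 2.99e-07, 4.04e-08 and 3.89e-05 by edgeR). CFLAR (6594 reads) was also called but fell less, with a log2 fold change of −0.13 (adjusted p = 0.0308 by edgeR). SOD2, IER3, JUNB and BCL2L1, with 8752 to 20560 reads, were not called (log2 fold changes −0.01, −0.09, −0.06 and 0.07). The 11 calls became 6 with DESeq2, 5 on FPKM with limma and 7 without si_GRB2 2.

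The falls of the 4 members were −0.20 to −0.37, beside a median absolute log2 fold change of 0.24 over all called genes. Most called targets fell further, but those are targets picked by passing the test. The uncalled targets SOD2, IER3, JUNB and BCL2L1 changed less than each of the 4 members. CCL2, PLAU and CCND1, which the study chose on these same libraries and which are not independent evidence of direction, were at −1.63, −0.70 and −0.85 on the log2 scale. Of 11 interferon-stimulated genes tested, listed because transfected RNA can induce them, 1 was higher (IFIH1, 0.20) and 1 lower (OAS3, −0.27), with a median of −0.02 (18.2% called).

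**Figure D5:**
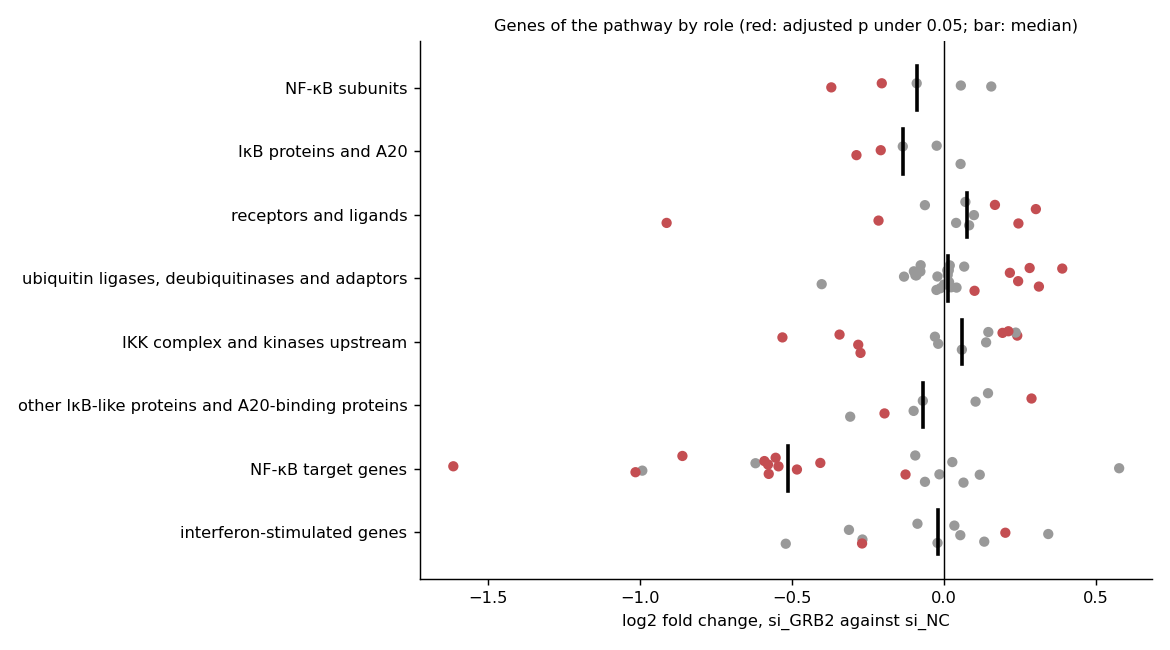
Log2 fold change (horizontal axis) of each tested gene, grouped by role in the pathway, in red where the adjusted p was under 0.05 in edgeR, with a black bar at each group's median. The target genes spread to −1.62 with a median of −0.51, while the medians of the subunits and of the IκB proteins with A20 are −0.09 and −0.13.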

How the data were processed

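RNA of SK-BR-3 cells was measured in 3 si_NC and 3 si_GRB2 libraries. The authors trimmed reads with FASTX-Toolkit, aligned them to GRCh38 with HISAT2, counted uniquely mapped reads and deposited raw counts per gene together with FPKM. The counting tool, its strand setting and the annotation release are not given in the sources used here. TMM factors, the filterByExpr filter (15801 genes kept) and the quasi-likelihood test of the groups, without a covariate, were run in edgeR 4.0.16 under R 4.3.3, and p-values were adjusted over all genes kept by the Benjamini-Hochberg method. An adjusted p under 0.05 was a call. Standard errors were derived from each log2 fold change and its F value. CPM are TMM-normalized, with no interval for single libraries. The lowest p an exact permutation test of 3 against 3 libraries can give is 0.1, so single genes were judged by the fit across all genes.

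The 10 genes, the pathway lists and the tests were chosen with earlier results of these data known, and the falls of the target genes had been seen before. Named genes were the 10 genes, GRB2, the core kinases, up to 5 called genes per list with the largest change and no overlap between groups, and 3 genes the study chose. Alternatives were DESeq2 1.42.0, other size factors and filters, limma 3.58.1 on log2(FPKM + 1) or log2(FPKM + 0.1), a block on replicate number, stricter limits, and each library left out. Scripts were tested on simulated data. Positions are from GENCODE 44 on GRCh38, where 99.7% of gene identifiers were found. Figures were drawn with matplotlib 3.10.9. Values in the authors' own comparisons were not used, and fRIP-seq and splicing were not analysed here.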

Additional observations from a re-analysis of the deposited data

How the results depend on the processing

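Of 149 refits of the 10 genes, 126 kept direction and side of the threshold, 17 lost a call, 2 gained one and 4 changed sign. Only the 4 called genes had a call to lose. TNFAIP3 lost it in 10 of 15 refits, RELA in 3 of 15, and RELB and NFKBIA in 2 of 15 each. NFKB1 was −0.0012 without si_NC 2 (0.0854 at the highest of the fits without 1 library), and NFKBIB was 0.0191 with limma on log2(FPKM + 1), with or without a minimum mean of 1 FPKM, and 0.0207 with 0.1 added. The 4 lower genes became 0 with limma on FPKM (1 or 0.1 added), 2 with the minimum mean, and 0 with the fold limit. The fold limit left 0 of 7 calls among the IKK list, 0 of 6 among ubiquitin ligases and adaptors, 0 of 2 among IκB-like genes, 1 of 5 among receptors and ligands, 3 of 11 targets and 0 of 2 interferon-stimulated genes. Limma on FPKM with 1 or 0.1 added left 0, 2, 1 (with 1 added), 2, 5 and 1 of these, and with the minimum mean 5 targets and 1 interferon-stimulated gene. DESeq2 and an adjusted p under 0.01 each left 6 targets, and the stricter p 1 interferon-stimulated gene. Without 1 library, 7 to 10 targets and 1 to 3 interferon-stimulated genes were called. Over all genes, 4838 calls became 1400, 1534 and 2689 in the 3 limma fits. The cause of these changes was not tested. Whether replicate numbers pair the libraries could not be settled (correlations of same-numbered deviations 0.23, −0.09 and 0.08, and 2 of 3 si_GRB2 libraries were closest to their own number). With a replicate block, 4807 genes were called and the number of lower members stayed at 4. TNFAIP3, with the fewest reads of the 10 (1072), had the largest standard error (0.10).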

Other observations

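The 3′ UTRs of the 10 genes differ in length, from 57 bases in NFKBIB to 9077 in REL, by the canonical transcripts of GENCODE 44. The AU-rich hexamer TATTTA, a part of elements known to shorten the life of many inflammatory mRNAs, was found 8 times in REL, 4 times in TNFAIP3, 2 times in NFKBIA and once each in NFKB1 and NFKB2, and in none of the 5 others. Of the 12692 tested genes with such a UTR, 53.2% hold it at least once. A match to the seed of the GRB2 siRNA printed in the study's methods occurs in the UTR of 1 of the 10, REL, against 8.12% of those genes. An effect of the seed on any of the 10 genes was not tested. The labels do not say which siRNA the libraries received.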
